A study of Mus musculus with 6 samples.

Results

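The wild-type baseline of the mouse yolk sac at embryonic day 9.5 was described from the 3 arrays labelled wild type, of 6 arrays in the study, and no level was compared between genotypes. Each array held total RNA, extracted with Trizol, from the yolk sac of 1 individual embryo, and the 3 embryos are called wild types 1, 2 and 3 here. The other 3 arrays came from embryos labelled GW182gt/gt, homozygous for a mutant allele of Tnrc6a (GW182), and were used only for the spread within their own group. All 6 embryos were of the same age and were described as littermates, and the genotype label of every sample carries the word mixed, which is not explained. The arrays were Affymetrix Mouse Gene 1.0 ST arrays, which probe exons along the length of each transcript. Of 35557 probe sets, 21789 had exactly 1 gene symbol, and the brightest probe set of each of 19938 genes was kept.

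The yolk sac surrounds the early mouse embryo and feeds it before the placenta is working. Its outer epithelium, the visceral endoderm, takes up maternal protein by endocytosis, breaks it down in lysosomes, and secretes serum proteins and lipoproteins as the liver does later. Its inner mesoderm carries the blood islands, where primitive red cells with embryonic globins and the first endothelium form, with mesenchyme and a lining of mesothelium. The parietal endoderm, a thin layer that lies apart from the visceral endoderm against the trophoblast of the placenta, makes the thick basement membrane called Reichert's membrane.

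All values are the deposited log2 signals, so a difference of 1 is a doubling of signal. The medians over all probe sets were 5.22, 5.21 and 5.20 in wild types 1, 2 and 3. Across all genes, Pearson's r was 0.992 between wild types 1 and 2, 0.995 between 1 and 3, and 0.992 between 2 and 3; these are correlations across genes, which are not replicates. Among 14215 genes above the background level defined below, 142 differed by 1 or more between wild types 1 and 2, 128 between 2 and 3, and only 17 between 1 and 3. Wild type 2 thus stood apart, and the results that it moves most are given by array or without it. The sex-linked genes also differed. Xist, the RNA that coats the inactive X chromosome, read 9.87, 3.58 and 3.90 in wild types 1, 2 and 3, and the Y-linked gene Eif2s3y read 2.42, 7.46 and 7.25. Wild type 1 was therefore opposite to the other two in both, and wild types 2 and 3 were alike. In bulk tissue, fewer cells of a type and less RNA per cell cannot be told apart.

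Promoters of 4 bright genes are shown because these genes carry the main programmes of the tissue: secreted protein, lipoprotein, globin and red cell membrane. They are the brightest members of those lists with an entry in the RefSeq promoter table of GRCm38.p6, apart from Ttr, whose promoter is not printed here, and run from 250 bases before to 50 bases after the first listed start. Capitals mark TATAAA and CATAAA on the printed strand, the TATA box core and its variant, and GATAA in either orientation (TTATC when reversed), the core bound by GATA factors.
Afp, chr5:90490464-90490763, plus strand: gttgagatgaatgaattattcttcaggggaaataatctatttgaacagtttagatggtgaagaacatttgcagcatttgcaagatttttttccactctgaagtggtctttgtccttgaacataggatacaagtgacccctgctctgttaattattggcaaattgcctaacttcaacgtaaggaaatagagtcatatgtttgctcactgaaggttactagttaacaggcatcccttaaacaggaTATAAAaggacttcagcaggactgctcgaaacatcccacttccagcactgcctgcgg
Apoa1, chr9:46228380-46228679, plus strand: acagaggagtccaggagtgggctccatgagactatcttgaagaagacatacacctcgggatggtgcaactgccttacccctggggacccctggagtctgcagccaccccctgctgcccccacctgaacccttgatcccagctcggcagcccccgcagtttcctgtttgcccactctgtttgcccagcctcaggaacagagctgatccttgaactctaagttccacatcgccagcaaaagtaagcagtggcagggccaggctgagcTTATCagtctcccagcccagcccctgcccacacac
Hbb-y, chr7:103853158-103853457, minus strand: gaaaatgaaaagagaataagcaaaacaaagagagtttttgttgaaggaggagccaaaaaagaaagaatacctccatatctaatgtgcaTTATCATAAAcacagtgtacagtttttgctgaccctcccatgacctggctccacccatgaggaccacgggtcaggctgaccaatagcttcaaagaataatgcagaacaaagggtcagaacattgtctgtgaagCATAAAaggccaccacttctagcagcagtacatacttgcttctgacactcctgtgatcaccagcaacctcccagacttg
Ermap, chr4:119189946-119190245, minus strand: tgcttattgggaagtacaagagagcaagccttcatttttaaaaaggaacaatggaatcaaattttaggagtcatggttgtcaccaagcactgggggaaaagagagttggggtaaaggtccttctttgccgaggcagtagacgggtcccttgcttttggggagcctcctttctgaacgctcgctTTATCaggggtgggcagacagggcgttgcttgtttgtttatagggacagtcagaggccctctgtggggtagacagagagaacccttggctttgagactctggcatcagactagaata
The alpha-fetoprotein promoter held TATAAA 7 bases before its listed start. The promoter of the embryonic globin Hbb-y held no TATAAA but CATAAA 29 bases before its start, and farther upstream a second CATAAA that shares a base with a TTATC. The promoter of Ermap, an erythroid membrane protein, held TTATC 67 bases before its start.

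Across all 15562 genes with a promoter in the table, 7.85% held TATAAA on the sense strand, 5.6% held CATAAA and 21.6% held GATAA on either strand. TATAAA was in 25 of the 158 promoters found for the 200 brightest genes (15.8%) and in 39 of 402 for the 500 brightest (9.70%). It was in 544 of 11232 promoters of genes above the background level (4.84%) and in 678 of 4330 of genes not above it (15.7%). The share was thus above that of all genes in the 200 brightest genes and in genes not above the level. The exact 95% interval was 10.5% to 22.5% for the 200 brightest. For the 500 brightest it was 6.99% to 13.0%, which holds the 7.85% of all genes. TATAAA starting 40 to 20 bases before the start was in 7 of 158 promoters of the 200 brightest (4.43%, interval 1.80% to 8.92%). It was in 2.99% for the 500 brightest and 2.6% for all genes. The visceral endoderm secretion and lipoprotein genes held TATAAA in 8 of 32 promoters (25%), and 3 of these started 40 to 20 bases before the start, where 2.6% of all promoters held it. The primitive erythroid genes held TATAAA in 2 of 42 (4.76%) and GATAA in 16 of 42 (38.1%). GATAA was as frequent in the visceral endoderm genes, in 12 of 32 promoters (37.5%), and in genes not above the background level (35.1%). A match is a description of letters, not a binding site.

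The table gives no detection call, so genes were read against 1227 chemoreceptor genes, the olfactory, vomeronasal, trace amine and bitter receptors of sensory cells. Their median signal was 2.53 and their 95th percentile, used as the background level, was 4.24. Above this level stood 14215 of 19938 genes (71.3%). The median of all genes was 5.66, the brightest 10% started at 8.81, and the brightest 1% at 10.92. The threshold fell within a continuum: Krtap5-2 was the last gene above it and Mindy4 the first not above it, both at 4.24 when rounded. A gene below the level may still be expressed at a signal that these probes do not separate from background.

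Embryonic globins and visceral endoderm products stood among the brightest of all genes, beside housekeeping genes. The embryonic beta-like globin Hbb-y read 13.10, 13.11 and 13.05 and ranked 3 of all genes. The embryonic alpha-like globin Hba-x read 12.76, 12.79 and 12.79, and the second embryonic beta-like globin, Hbb-bh1, read 12.55, 12.61 and 12.45. All 3 globins measured were among the brightest 12 genes. The adult globin genes have no probe set of a single symbol and were not analysed here. Ttr, which carries thyroid hormone and the retinol-binding protein, read 12.65, 12.67 and 12.71. Alpha-fetoprotein, Afp, the main serum protein of the embryo, read 12.64, 12.65 and 12.59. Apoa1, the main protein of high-density lipoprotein, read 12.47, 12.36 and 12.50, Rbp4, the serum carrier of retinol, 12.35, 12.44 and 12.46, and Apoe 12.37, 12.33 and 12.44. Cubn, the cubilin receptor through which the visceral endoderm takes up protein, read 12.27, 12.16 and 12.09. These values differed between embryos by no more than 0.25, the widest range among the 30 brightest genes, whose median range was 0.11.

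The first gene in the order was Baiap2l1, an actin-bundling adaptor, with a mean of 13.27, but its other probe sets read 10.84 and 7.18. The translation factor Eef1a1 (13.15) came next, and the cytoskeletal actin Actb (12.92) followed Hbb-y. Slc2a3, a glucose transporter, had a mean of 12.78. The non-coding RNA Rn7sk followed at 12.67. Among the 30 brightest genes were 7 ribosomal protein genes, 6 of the visceral endoderm lists, 3 globins and 2 of glycolysis. The other 12 included the chaperones Hspa8 (12.54) and Hsp90aa1 (12.35), the mitochondrially encoded COX2 (12.43), thioredoxin Txn1 (12.32), cyclophilin Ppia (12.22), the poly(A)-binding protein Pabpc1 (12.16), the ATP synthase subunit Atp5b (12.11) and the helicase Eif4a1 (12.10). Neighbours in this order were mostly not separated: of 29 neighbouring pairs, 8 kept their order on all 3 arrays and 21 did not. The membership was steadier than the order, since 88 genes were among the brightest 100 of every array.

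**Figure D1:**
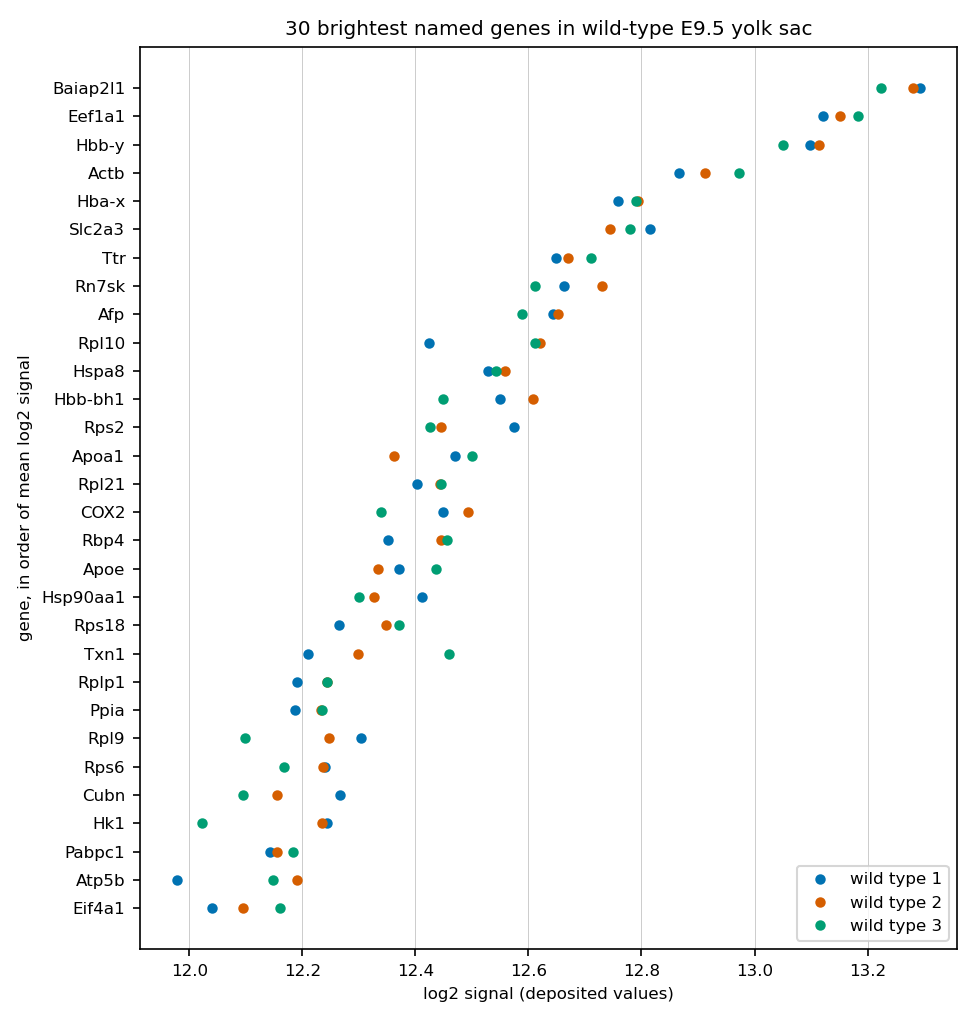
Signal of the 30 brightest genes. Each row is a gene, in order of mean signal, and the points are the deposited log2 signals of the 3 wild-type embryos. The 3 globins and the visceral endoderm genes lie among ribosomal and housekeeping genes, and the points of neighbouring genes overlap.

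Signal depends on the probes as well as on the RNA, so this order is one of signal and not of molecules. The size of the probe effect was read from 760 genes with more than 1 probe set above the background level. The brightest and the next probe set of a gene differed by a median of 0.43, with a 90th percentile of 2.22, and 207 of these genes (27.2%) differed by 1 or more. Pairs with a probe set below the level were left out of these values. Dab2, an adaptor of the endocytic receptors, had probe sets at 11.66 and 2.41, and Hk1, a hexokinase, at 12.17 and 7.46. Rpl21, with 9 probe sets, spanned 11.13 to 12.43. By contrast, the spread between embryos was small: the median SD of a gene above the level was 0.11. Over all genes, those not above the level included, the median 95% confidence interval of a mean reached 0.17 to either side. Positions that differ by less than about 1, and for some genes by more than 2, are therefore within what 2 probe sets of one gene can show.

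Of 34 gene lists for cell types and general programmes, 25 had a median above that of all genes, and in 16 every member found lay above the background level. Of all genes 71.3% lay above that level, the share beside which each list count below is to be read. The order of list medians was firm at its ends and loose in its middle. Globins (median 12.78), ribosomal proteins (11.13) and the endocytic and lysosomal genes of the visceral endoderm (10.57) came first on every array in that order. Adult liver enzymes (3.52) came last on every array. Over the whole order, 17 of 33 neighbouring pairs of lists had the reverse order on at least 1 array. The order is that of medians of each gene's mean over the 3 arrays. By it blood progenitors (5.64) stood before smooth muscle (5.59), though the array medians had the reverse on all 3 arrays. Some lists share genes with other tissues, and the epithelial, endothelial and mesenchymal lists mark classes of cells found in many organs.

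**Figure D2:**
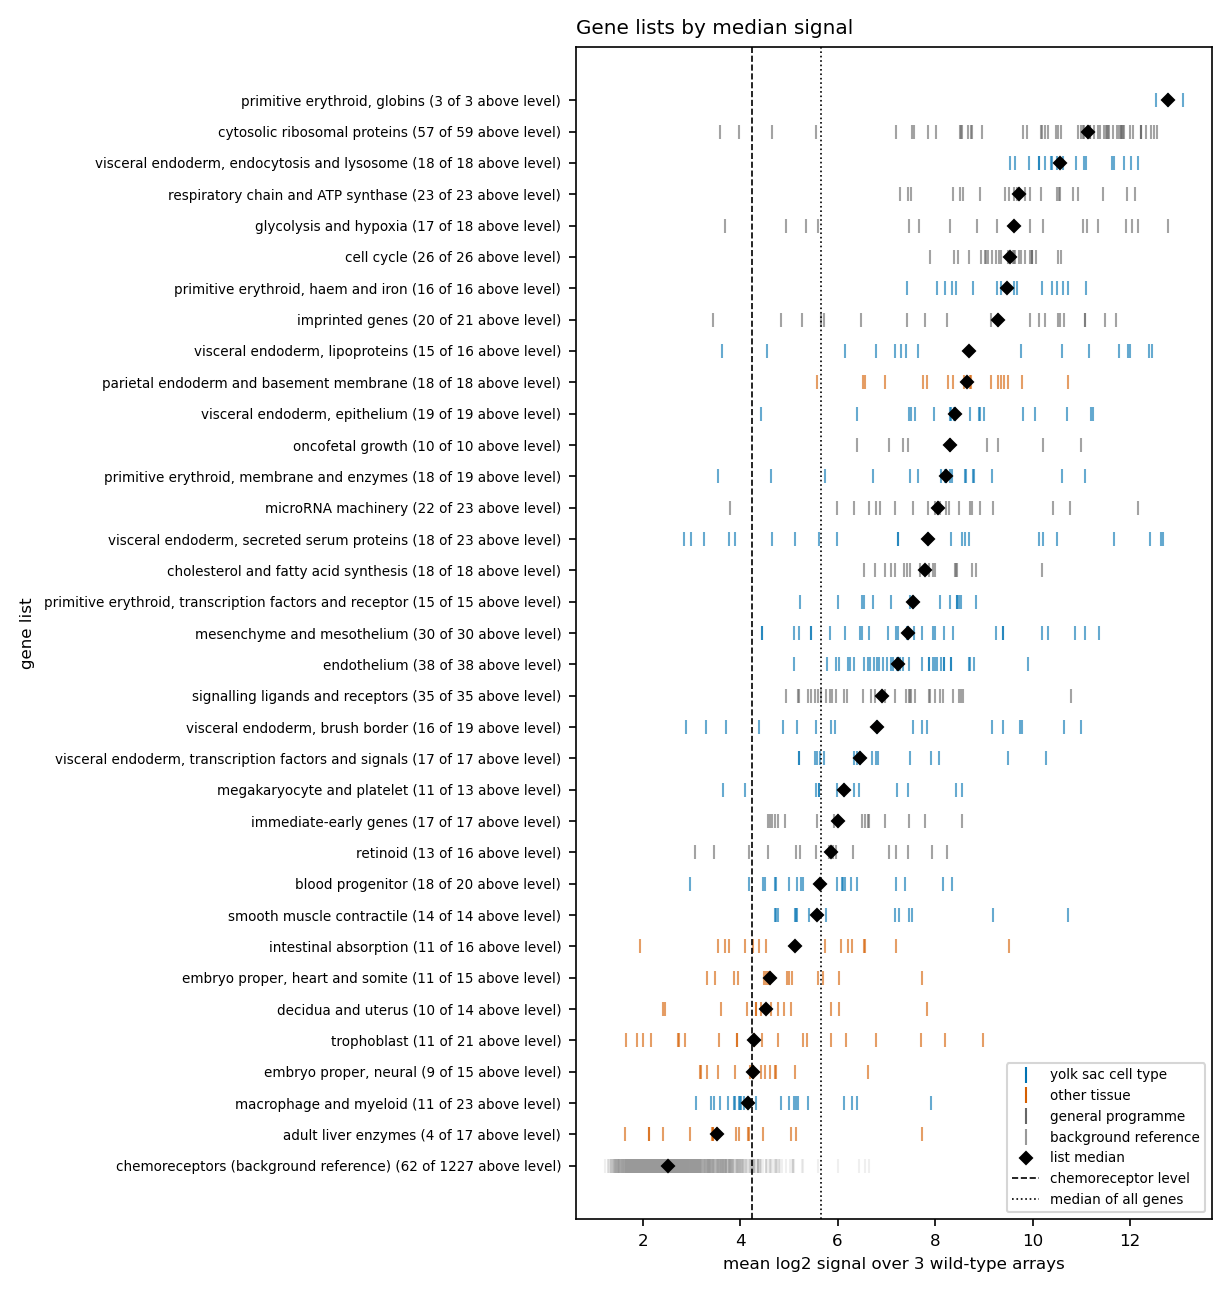
Signal of the members of each gene list. Each tick is the mean log2 signal of 1 gene over the 3 wild-type embryos, diamonds are list medians, the dashed line is the background level (4.24) and the dotted line the median of all genes (5.66). Globins, ribosomal proteins and endocytic genes lie at the bright end, and adult liver enzymes lie nearest to the chemoreceptor genes.

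The endocytic and lysosomal machinery was the brightest visceral endoderm programme. All 18 genes found were above the background level, and all 18 were in the brightest 10% of genes, where 10% of all genes lie by definition. The medians were 10.50, 10.76 and 10.53 in wild types 1, 2 and 3. Besides Cubn, the lysosomal proteases Lgmn (12.06, 11.93 and 12.08) and Ctsz (11.82, 11.82 and 12.00) were brightest. The dimmest member, named after its value was seen, was Rab11a, a GTPase of recycling endosomes, at 9.53. No gene of this list ranged by 1 or more, and the widest, the sphingolipid activator Psap, read 10.45, 10.81 and 10.27.

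Lipoprotein genes split into a bright and a moderate set. Of 16 found, 15 were above the level and 8 in the brightest 10%, with a median of 8.71. The structural apolipoproteins Apob (12.08, 12.01 and 11.90) and Apoa4 (11.82, 11.99 and 12.04) joined Apoa1 and Apoe at the top. Mttp, the transfer protein that loads lipid onto Apob, had a mean of 10.61. The receptor Vldlr was the widest of the list, at 4.12, 5.08 and 4.44, and Apoh was the gene not above the level, at 3.63. Mttp and Apoh were chosen after their values were seen.

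Secreted serum proteins were the least uniform visceral endoderm programme. Of 23 genes, 18 were above the level (78.3%, where 71.3% of all genes were) and 7 in the brightest 10%. The list medians were 7.57, 8.14 and 7.86 in wild types 1, 2 and 3, and 7.71 without wild type 2. The list spanned 12.68 (Ttr) to 2.86 (the amylase Amy1, named after its value was seen). Trf, the iron carrier transferrin, read 11.55, 11.68 and 11.76. The 3 fibrinogen chains Fgg, Fgb and Fga had means of 10.21, 10.13 and 8.71, and these 3 were chosen after their values were seen. Albumin, Alb, which replaces alpha-fetoprotein as the main serum protein later in development, read 3.78, 3.73 and 3.78 and was not above the level on any array. Igfbp1, a binding protein of insulin-like growth factors, was the widest of the list, with 7.04, 7.89 and 6.79, highest in wild type 2.

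Genes of the apical brush border and of the epithelial junctions were mostly above the level. Of 19 brush border genes 16 were above it (84.2%, where 71.3% of all genes were), and 15 without wild type 2. The brightest were the scaffold Slc9a3r1 (10.97, 10.90 and 11.12), the membrane linker Ezr (10.67, 10.55 and 10.70), the scaffold Pdzk1 (9.73, 9.74 and 9.90) and villin, Vil1 (9.77, 9.69 and 9.79). The peptidase Mme of this list was above the level only in wild type 2, at 4.21, 6.66 and 3.77. All 19 epithelial genes were above the level. The keratin Krt8 read 10.98, 11.49 and 11.23, the embryonic claudin Cldn6 11.18, 11.05 and 11.36, Krt18 10.62, 10.80 and 10.70, and the protease inhibitor Spint2 10.11, 10.04 and 10.02. Krt19 was the widest, at 7.87, 9.02 and 8.09.

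Transcription factors and signals of the visceral endoderm were dimmer as a list, with a median of 6.47, though all 17 were above the level. The coactivator Cited1 (10.26, 10.29 and 10.30) and the nuclear receptor Hnf4a (9.48, 9.39 and 9.60) were bright and even. Gata4 read 7.93, 8.29 and 7.99. Gata6, which acts in both endoderm layers, read 7.41, 8.90 and 7.47, so that wild type 2 was 2.75-fold above the mean of the other two. Pga5, a pepsinogen, was the widest, at 5.83, 7.42 and 5.78.

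Genes that make up the primitive red cell followed the globins at lower signal. All 16 genes of haem synthesis and iron supply were above the level, with a median of 9.48. The transferrin receptor Tfrc read 11.14, 11.22 and 10.92, the mitochondrial glutaredoxin Glrx5 10.73, 10.59 and 10.85, and the haem pathway enzymes Cpox 10.66, 10.51 and 10.71 and Alad 10.47, 10.33 and 10.68. The ferrireductase Steap3 was the widest of this list, at 7.68, 7.03 and 7.53. Of 19 membrane and enzyme genes 18 were above the level. Carbonic anhydrase Car2 read 11.01, 10.96 and 11.28, the anion exchanger Slc4a1 10.74, 10.46 and 10.63, Ermap 9.19, 9.11 and 9.19 and the spectrin chain Sptb 8.93, 8.63 and 8.83. The urea transporter Slc14a1 was the widest, with 6.18, 7.71 and 6.30. Apart from this gene, no erythroid gene of the lists ranged by 1 or more.

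The erythroid transcription factors and receptor were all above the level (15 of 15), with a median of 7.55. The adaptor Ldb1 read 8.74, 8.95 and 8.85, the erythropoietin receptor Epor 8.62, 8.46 and 8.53, Lmo2 8.76, 8.27 and 8.47, and the GATA cofactor Zfpm1 8.53, 8.22 and 8.62. Ikzf1 had the widest range, at 6.90, 6.38 and 6.92. The erythroid factors and the haem genes read lower in wild type 2 than in the other two on average, by mean deviations of -0.11 and -0.10 from the 3-array mean, while those of wild type 3 were 0.09 and 0.08.

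Other blood lineages were dimmer. Of 20 blood progenitor genes 18 were above the level, and the median of the genes' 3-array means was 5.64. The medians on each array were 5.47, 5.63 and 5.28 in wild types 1, 2 and 3, and the median of the genes' means without wild type 2 was 5.38. Cd34, a surface marker of progenitors and endothelium, read 8.04, 8.68 and 8.34. Cbfb, the partner of Runx1, read 8.09, 8.27 and 8.11, Meis1 7.38, 7.82 and 6.95, and the integrin Itga2b 7.25, 7.23 and 7.10. The receptor Kit was the widest, at 5.69, 7.36 and 5.31. Megakaryocyte genes numbered 11 of 13 above the level, led by Thbs1 (8.66, 8.81 and 8.21) and Tubb1 (8.38, 8.66 and 8.22). Pf4, the platelet chemokine, read 5.87, 6.61 and 5.92, whereas Ppbp, a second platelet chemokine, had a mean of 3.65 and was not above the level.

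Macrophage and myeloid genes were near the background level as a list, with 11 of 23 above it and a median of 4.16. The mannose receptor Mrc1, which endothelium can also express, read 8.17, 7.64 and 7.93. Lgals3 read 6.47, 6.71 and 6.02 and the lysosomal protein Cd68 6.35, 6.16 and 6.39. The receptor Csf1r, which defines macrophages and is also made by trophoblast, read 5.97, 6.84 and 5.59, highest in wild type 2. The macrophage marker Adgre1 was not above the level, at 3.15, 2.94 and 3.18.

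All 38 endothelial genes were above the level, with a median of 7.24. The hyaluronan receptor Lyve1 was the brightest, at 10.12, 9.62 and 9.99. The receptors Kdr (8.86, 8.97 and 8.58) and Tek (8.78, 8.72 and 8.56), for VEGF and angiopoietins, and the diaphragm protein Plvap (8.67, 8.56 and 8.93) followed. Emcn was the widest, with 6.36, 7.51 and 6.95. By mean deviations the list differed little between embryos, at -0.06, 0.05 and 0.00. Its medians were 7.17, 7.43 and 7.21. Wild type 2 was the highest array for 19 of the 38 genes, where it was highest for 34.4% of all genes above the level.

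All 30 mesenchyme and mesothelium genes were above the level. Fibronectin, Fn1, read 11.40, 11.45 and 11.24, and the collagen I chains Col1a1 and Col1a2 read 11.05, 11.38 and 10.79, and 10.30, 10.67 and 9.96. Vimentin, Vim, read 10.55, 11.32 and 10.73. Wild type 2 was the highest array for 26 of the 30 genes, where it was highest for 34.4% of all genes above the level. The widest member was Pdgfra, a growth factor receptor, at 7.68, 9.13 and 7.76. The list median was 7.26, 7.86 and 7.22 in the 3 embryos.

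Smooth muscle genes showed the same embryo as the highest, for 12 of 14 genes. Smooth muscle actin, Acta2, read 10.12, 11.44 and 10.64, Tpm1 8.81, 9.68 and 9.09, and Cald1 7.19, 8.12 and 7.08, while Smtn was level at 7.50, 7.57 and 7.48. Tagln was the widest, at 6.11, 8.44 and 6.97. All 14 genes were above the level, but the list median, 5.59, was no higher than that of all genes.

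Markers of tissues that lie next to the yolk sac, or that it was not labelled to hold, ranged from below the background level to bright. Trophoblast genes stood at 11 of 21 above the level (52.4%, below the 71.3% of all genes), and at 9 without wild type 2. The amino acid transporter Slc38a4 (8.61, 9.60 and 8.71), an imprinted gene, and the homeobox gene Rhox6 (8.12, 8.35 and 8.11) were bright in all embryos. Plac1 read 7.19, 8.64 and 7.31, and the homeobox gene Esx1 6.76, 6.65 and 6.93. The spongiotrophoblast markers Tpbpa and Tpbpb were not above the level, at 2.17 and 1.66, and were chosen after their values were seen. Decidual and uterine genes stood at 10 of 14 (71.4%), near the 71.3% of all genes, and at 9 without wild type 2. The crystallin Cryab read 7.32, 8.64 and 7.56, while the decidual prolactins Prl3c1 (2.43) and Prl6a1 (2.46) and the progesterone receptor Pgr (3.60) were not above the level.

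The neural, heart and somite lists had medians of 4.27 and 4.62, below that of all genes. Of 15 neural genes 9 were above the level (60%, below the share of all genes). Sox1 read 6.63, 6.49 and 6.76, and Sox2 (3.90) and Pax6 (3.55) were not above the level. Of 15 heart and somite genes 11 were above it (73.3%, where 71.3% of all genes were), led by cardiac actin, Actc1, at 6.5, 9.55 and 7.16, and by the factor Nkx2-5 at 6.16, 5.98 and 5.94. Adult liver enzymes were the dimmest list, with 4 of 17 above the level. The tryptophan dioxygenase Tdo2 was the brightest, at 7.37, 8.09 and 7.72. Cyp7a1, the rate-limiting enzyme of bile acid synthesis, read 2.43, 2.60 and 2.24, and Cyp3a11, Cyp2e1 and Cyp1a2, which oxidise drugs, had means of 1.64, 3.52 and 2.98. Intestinal absorption genes stood at 11 of 16 (68.8%), near the share of all genes. Mogat2, which rebuilds triglyceride in absorptive cells, read 9.47, 9.49 and 9.62, and the peptide Tff3 7.15, 7.47 and 6.96. The sucrase Sis was not above the level, at 1.94. Fabp1, a fatty acid carrier of liver and gut, read 5.97, 6.42 and 7.32 and was the widest of its list, highest in wild type 3.

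General programmes described a tissue bright in translation, energy and division genes. Of 59 cytosolic ribosomal protein genes 57 were above the level and 44 in the brightest 10%, and the paralog Rpl39l was one of the 2 below it, at 3.98. Rpl10 read 12.42, 12.62 and 12.61, Rps2 12.57, 12.45 and 12.43, and Rps18 12.27, 12.35 and 12.37; such probes can also bind processed copies. All 23 respiratory chain genes were above the level, led by the ATP synthase subunits Atp5b, Atp5a1 (11.82, 11.97 and 12.01) and Atp5c1 (11.43, 11.43 and 11.47). The glycolysis and hypoxia list held 17 of 18 above it. The glucose transporter Slc2a1 read 12.03, 11.96 and 12.13 and lactate dehydrogenase, Ldha, 11.92, 11.85 and 12.00. Its widest member, the vasodilator Adm, read 5.32, 6.0 and 5.49.

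All 26 cell cycle genes were above the level and 22 were in the brightest 10%. The sliding clamp Pcna read 10.59, 10.48 and 10.65, the reductase subunit Rrm1 10.52, 10.58 and 10.44, and the division marker Mki67 10.08, 10.14 and 9.99. Imprinted genes, expressed from one parental copy, were bright with 12 of 21 in the brightest 10%. Mest read 11.58, 11.90 and 11.67, Peg10 11.51, 11.50 and 11.43, Phlda2 10.97, 11.01 and 11.26, and the growth factor Igf2 10.98, 11.24 and 11.00. The list median was 9.18, 9.89 and 8.97, and Zim1 was the widest member, at 5.88, 7.60 and 5.99. The oncofetal genes included the proteoglycan Gpc3 (10.86, 11.00 and 11.12), the RNA-binding proteins Igf2bp1 (10.18, 10.27 and 10.17) and Igf2bp3 (9.13, 9.07 and 9.0), and Lin28a (9.40, 9.10 and 9.41), which blocks maturation of let-7 microRNAs. Sterol and fatty acid synthesis genes had a median of 7.79, led by the desaturase Scd2 at 10.25, 10.43 and 9.90.

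All 35 signalling ligands and receptors were above the level. Beta-catenin, Ctnnb1, read 10.70, 10.86 and 10.83, and the receptors Tgfbr1, Bmpr1a and Ptch1 had means of 8.57, 8.53 and 8.50. Placental growth factor, Pgf, was the widest at 4.98, 6.69 and 5.29. Of 16 retinoid genes 13 were above the level (81.25%, where 71.3% of all genes were). Rdh10, which makes retinal, read 8.13, 8.13 and 8.45 and Dhrs3, which reverses that step, 7.95, 7.81 and 8.04. The retinoic acid-degrading enzyme Cyp26a1 was the widest, with 4.50, 6.44 and 4.75. All 17 immediate-early genes, which rise quickly after handling or stimulation, were above the level with a median of 6.0. Klf6 read 8.55, 8.62 and 8.50, and Ccn1 7.36, 8.64 and 7.41.

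The gene targeted in the mutants was readily measured in the wild type. Tnrc6a, whose protein links Argonaute to the enzymes that shorten poly(A) tails, read 8.40, 7.62 and 8.29, lowest in wild type 2. Its range of 0.78 was the widest of 23 genes of the microRNA machinery, of which 22 were above the level. The brightest of these besides Pabpc1 were the decapping helicase Ddx6 (10.84, 10.82 and 10.62), the deadenylase scaffold Cnot1 (10.54, 10.43 and 10.27) and the helicase Mov10 (9.16, 9.24 and 9.19). The paralogs Tnrc6b and Tnrc6c had means of 8.06 and 6.33. Among the Argonautes, Ago2 had a mean of 8.72, Ago1 6.87 and Ago3 6.65, and Ago4 (3.79) was not above the level. The paralogs and Argonautes were chosen after their values were seen.

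The spread between embryos was small for most genes and fell with signal. The median SD was 0.135 in the dimmest 10% of genes above the level and 0.084 in the brightest 10% of them. A range of 1 or more was found in 173 of 14215 genes (1.22%). In 148 of these (1.04% of genes above the level) wild type 2 was the array apart and read higher. The same array was apart and higher in 18.3% of the genes of smaller range, against 85.5% of the wide genes. In 124 of the 148 genes wild types 1 and 3 averaged above the background level too, and in 24 only wild type 2 brought the mean above it. Without wild type 2 the count of genes with a range of 1 or more was 18, against 134 without wild type 1 and 150 without wild type 3.

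**Figure D3:**
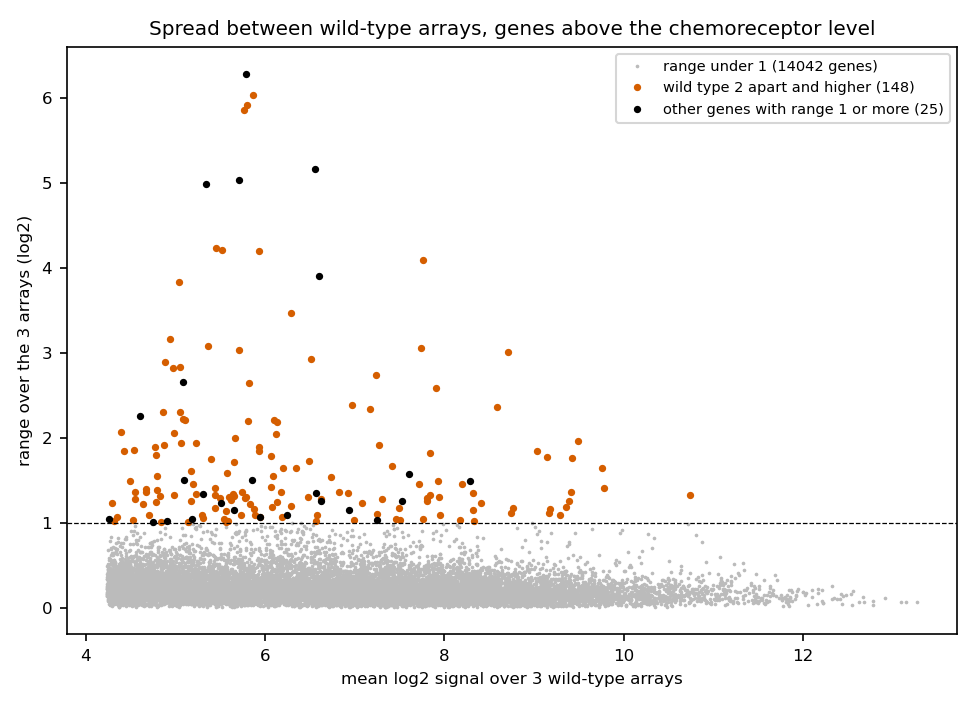
Range over the 3 wild-type embryos against mean signal. Each point is 1 of 14215 genes above the background level; the dashed line is a range of 1. Of the 173 genes on or above it, 148 were higher in wild type 2 (orange), and they span the whole scale of signal up to that of Acta2.

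Apart from sex-linked, clone and predicted genes, the 4 widest genes were 3 prolactins of the placenta and Cyp11a1, an enzyme of steroid synthesis. Where wild types 1 and 3 averaged at or below the background level, the fold of wild type 2 is given against that level. It is then a lower bound on the fold over their average, not over each of them. Prl7a1, Prl3d3 and Prl2c5, placental prolactins made by trophoblast giant cells, read 4.64, 9.5 and 3.47, then 3.84, 9.73 and 3.81, then 4.53, 9.30 and 3.45. Wild type 2 was 38.4-fold, 45.0-fold and 33.6-fold above the background level in these. Wild type 1 alone also read above that level in Prl7a1 and Prl2c5. Near-identical prolactin copies may share their probes. Of 19 prolactin family genes 6 were above the level, and all 6 ranged by 1 or more with wild type 2 the high array. For 5 of the 6 wild type 2 alone brought the mean above the level, so for these the filter fixed that direction; without wild type 2, 1 of 19 was above it. None of 6 placental cathepsins was above the level. Cyp11a1, which makes pregnenolone from cholesterol, read 4.60, 8.0 and 3.77. Wild type 2 was 13.6-fold above the background level in this gene, and wild type 1 alone was also above it. Star, which delivers cholesterol to it, read 5.50, 8.43 and 4.95, a 9.19-fold difference. Hsd3b6, a steroid dehydrogenase chosen after its values were seen, read 7.01, 9.60 and 7.09.

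A second set held genes of extracellular matrix and signal antagonists. Srgn, a proteoglycan core protein, read 6.67, 10.36 and 6.26, a 14.8-fold difference. The laminin chain Lama1 read 7.74, 10.69 and 7.69, a 7.88-fold difference. The plasminogen activator Plat read 5.81, 8.33 and 5.40. Follistatin, Fst, which binds activins, read 4.49, 8.68 and 4.63, 17.4-fold apart, and Bmper, which binds BMPs, 4.75, 7.70 and 4.67. In each of these genes wild types 1 and 3 were at most 0.41 apart and wild type 2 stood alone.

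The rest of the 20 widest genes, clone, predicted and sex-linked genes left aside, followed the same array with 1 exception. Slc6a2, the noradrenaline transporter, read 4.10, 8.31 and 4.13. Prl8a2, a decidual prolactin, read 4.09, 7.44 and 3.60, Prl4a1 4.91, 7.13 and 4.06, and the pregnancy-specific glycoprotein Psg29 4.50, 6.75 and 3.91. Fabp3, a fatty acid carrier of muscle, read 6.40, 9.02 and 6.28, and its second probe set read 6.22, 9.03 and 6.18. Cemip, which degrades hyaluronan, read 4.13, 6.81 and 3.99, and Trpc5os, on the X chromosome, 3.84, 7.0 and 3.98. The exception was Ccnb1ip1, an E3 ligase on chromosome 14, which read 8.02, 7.67 and 4.11, low in wild type 3 alone.

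**Figure D4:**
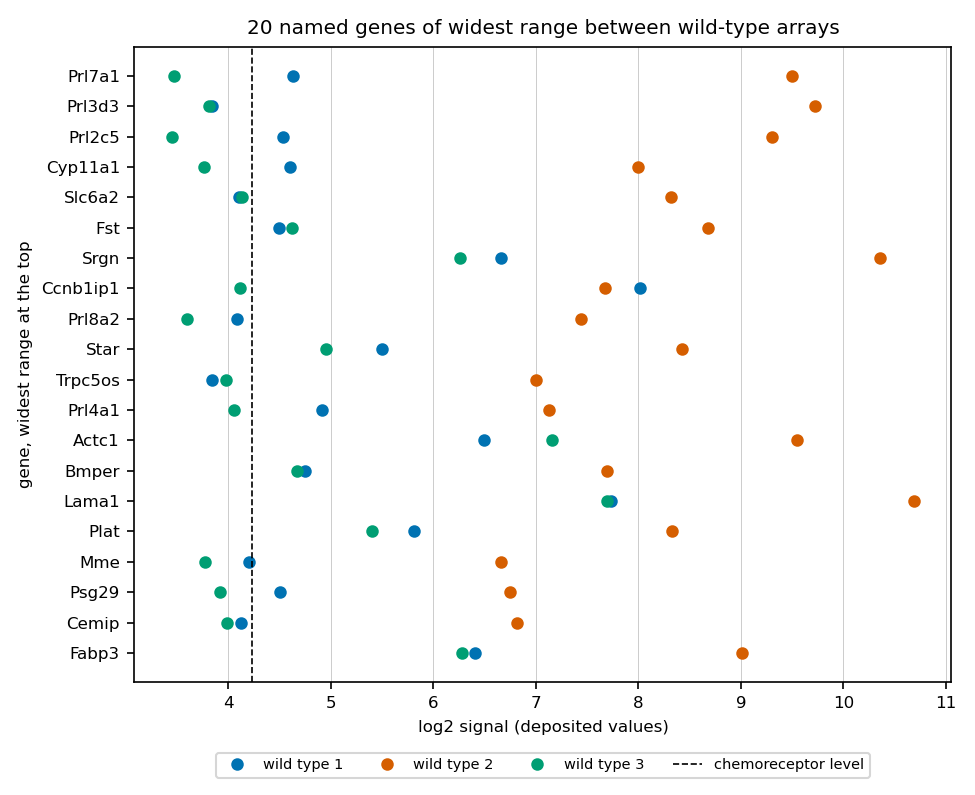
Signal of the 20 genes of widest range, each a row, in the 3 wild-type embryos; the dashed line is the background level (4.24). Wild type 2 lies to the right in 19 genes, and in Ccnb1ip1 wild type 3 lies to the left.

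Among the gene lists, the parietal endoderm and basement membrane list moved most with wild type 2. Its medians were 8.14, 9.79 and 8.16 in wild types 1, 2 and 3, so that its median over arrays was 8.65 with wild type 2 and 8.15 without it. The mean deviations of its members from the 3-array mean were -0.52, 1.08 and -0.56. Of its 18 genes 14 had a range of 1 or more, where 1.22% of genes above the level did, and wild type 2 was highest for 17. The list was drawn up with earlier results of these data known, so this count is no independent support. Of 16 laminin and collagen IV genes taken by name, 15 were above the level and 5 had a range of 1 or more. The median difference of wild type 2 from the other two was 0.19 for those above the level. The laminin chains Lamb1 (9.30, 10.71 and 9.32) and Lamc1 (8.87, 10.77 and 8.82) and the collagen IV chain Col4a1 (8.86, 10.59 and 8.82) made up the basement membrane core together with Lama1. Thrombomodulin, Thbd, a marker of parietal endoderm chosen here after its values were seen, read 6.13, 8.52 and 6.26. Sparc, a matrix protein, read 10.33, 11.31 and 10.52. Nid2, a linker of basement membranes chosen after its values were seen, was the exception at 9.30, 9.29 and 9.31, while its paralog Nid1 read 7.91, 10.10 and 7.74. Of 43 collagen genes above the level, wild type 2 was apart and higher in 17, a larger share than the 2719 of all 14215 genes above it. The differences of wild type 2 from the other two in these collagen genes had a median of 0.0005. They ran from -0.33 to 1.75, with 2 genes of range 1 or more.

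The other lists in which wild type 2 deviated by more than 0.25 were trophoblast (0.70), smooth muscle (0.41), decidua and uterus (0.32), mesenchyme and mesothelium (0.30) and imprinted genes (0.25). These values cover members above the level only. Wild type 2 alone brought 2 of the 11 trophoblast members and 1 of the 10 decidual members above it, so for these the filter fixed the direction. The trophoblast value moved by 0.31 when all members on the array were used. The trophoblast value came from a few members, since the median deviation of its members was 0.16 and the list medians were 4.27, 4.35 and 3.95. The decidual value likewise had a median over members of -0.04, with list medians of 4.27, 4.53 and 4.56. The mesenchyme and smooth muscle values were similar as medians, at 0.32 and 0.34. Of the 34 lists, 25 had no mean deviation over 0.15 on any array. Among these were the endocytic, lipoprotein, serum protein, brush border and epithelial lists of the visceral endoderm and all 4 erythroid lists. The visceral endoderm list of transcription factors and signals was not, with mean deviations of -0.16, 0.23 and -0.07. Of its 17 genes 4 had a range of 1 or more, all with wild type 2 apart and higher, where 1.22% of genes above the level had such a range. The parietal endoderm, mesenchyme and smooth muscle lists and a few trophoblast and decidual genes thus read higher on the same array; their part in the difference of any single gene was not tested.

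**Figure D5:**
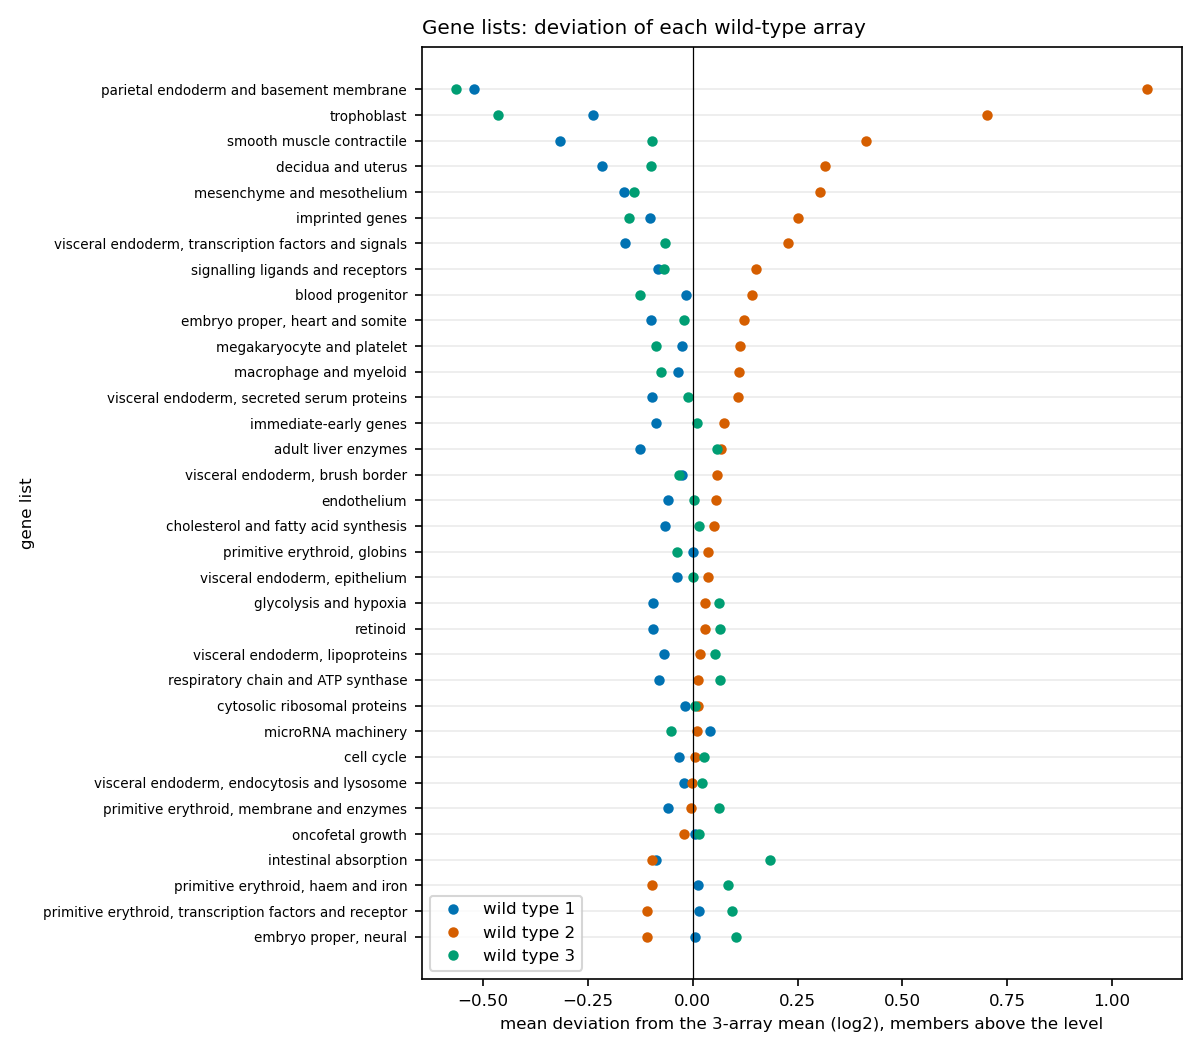
Mean deviation of each wild-type embryo from the mean of the 3, for the members of each gene list above the background level. Wild type 2 (orange) is highest in 21 of 34 lists and most in parietal endoderm and basement membrane (1.08), while most lists lie within 0.15 of 0.

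The same measure was read in the 3 mutant embryos, which had no part in choosing these genes. In the mutants 225 of the 14215 genes (1.58%) had a range of 1 or more. Of the 148 genes higher in wild type 2, 51 (34.5%) did, a count that was 39, 36 and 13 without mutant replicates 1, 2 and 3. Of the 25 other wide genes 10 (40%) did, so this was not limited to the genes higher in wild type 2. That 40% rests in part on the sex-linked genes Xist, Eif2s3y, Uty and Kdm5d. These ranged by 6.26, 4.81, 5.16 and 3.03 in the mutants. Of the 20 widest genes 10 had a range of 1 or more in the mutants. Of the 6 wide prolactins, 5 had a range of 1 or more in the mutants: Prl8a2 ranged by 5.60, Prl7a1 by 2.99, Prl2c5 by 2.70, Prl3d3 by 2.48 and Prl4a1 by 1.63. All 5 were highest in mutant replicate 2, and without that array 0 of the 6 ranged by 1 or more, the largest range being 0.62. Of the 14 wide parietal endoderm and basement membrane genes, 0 did, with or without any 1 mutant array, and their median range in the mutants was 0.27. Lama1 ranged by 0.65, Srgn by 0.51, Lamc1 by 0.11 and Col4a1 by 0.07. Fst and Slc6a2 lay near the background level in the mutants, at 4.62 to 4.87 and at 4.19 to 4.34, so their small ranges say nothing of how even they are. Actc1 ranged by 2.88. The mutant count among the 20 widest genes fell from 10 to 3 when mutant replicate 2 was left out and to 6 without mutant replicate 3.

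Few wide genes had another array apart. AI506816, a gene on chromosome 5, read 8.30, 8.22 and 3.15, low in wild type 3 alone, as Ccnb1ip1 was. Mrpl20, a mitochondrial ribosomal protein, and Padi2, both on chromosome 4, were also low in wild type 3, at 8.84, 8.65 and 7.35, and at 5.77, 5.71 and 4.44. Bst2 and B3gnt3, both on chromosome 8, were low in wild type 2, at 8.0, 6.75 and 7.81, and at 6.46, 4.95 and 6.16. Gzmg, a granzyme, was high in wild type 1 alone, at 6.05, 3.80 and 3.98. These genes were chosen after their values were seen.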

How the data were processed

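Probe set values were deposited by the authors on a scale read here as log2, from values of 0.66 to 13.7 with none negative. Per the submitters' processing notes MAS5 was used; for the summary of probes, background and normalization between arrays the method was not given in the sources used here, and its effect on array differences is unknown. Depth has no meaning for arrays, and 3 arrays limit the precision. Symbols came from the platform annotation in GEO, which can be old, and were checked against RefSeq: 21789 had 1 symbol, 1621 several and 12147 none. Of 683 listed genes 634 were found, 1 by a synonym.

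Values were used as deposited, without further normalization. Standard errors and 95% intervals of means came from limma 3.58.1 in R 4.3.3 (intercept only, empirical Bayes), tested on simulated data; tables were made with pandas 2.3.3. There was 1 group and no contrast, so no difference was tested. Named were Tnrc6a, the 30 brightest and 20 widest genes, the 4 brightest and the widest member of each list, and leading members of a list not above the background level; others are said to be chosen after seeing values. The members and lists were chosen with earlier results of these data known. CATAAA and GATAA searches were added to the planned TATAAA search. Alternatives covered normalization, probe set choice, thresholds and each array left out.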

Additional observations from a re-analysis of the deposited data

How the results depend on the processing

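No paired analysis was possible because only 1 group was described and its results come from no test. The count of genes above the background level (14215) lay between 14118 and 14325 with 1 array left out, and between 11722 and 15587 with the 99th or 90th percentile of chemoreceptor genes as the level. The count of genes with a range of 1 or more (173) was 18 to 150 with 1 array left out, 18 of these being the value without wild type 2, and 41 for a range of 2. It was 168 after quantile normalization, 176 after median centring and 208 without a filter on dim genes. The median difference between probe sets of a gene (0.43) was 0.58 without a filter on dim probe sets. The TATAAA share (15.8%) was 9.70% for the 500 brightest genes. The count of the 20 widest genes with a range of 1 or more in the mutants (10) was 3 to 10 with 1 mutant left out: 3 without mutant replicate 2 and 6 without mutant replicate 3. The median of the ribosomal list, 11.13, was 10.79 when each gene's probe sets were averaged. Of the brightest 100 genes, 84 were kept under that choice and 97 to 98 with 1 array left out. Alternatives chosen after seeing the data are the mutant arrays left out for gene families and the list counts without wild type 2. Wild type 2 had the highest mean deviation in 21 of 34 lists, and in 16 when medians over members were used. The normalization is not stated, near-identical copies may share probes, and 3 embryos bound every spread.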

Other observations

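Outside the named genes, 7814 probe sets with no symbol or several lay above the background level, and 5 of them were brighter than the brightest named gene. They were not described further, since their genes are not named here.

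Of the 173 genes with a range of 1 or more, 48 were in a gene list and 125 in none. Among those in none were Nog, a BMP antagonist (5.24, 7.42 and 4.78 in wild types 1, 2 and 3), Sfrp1, a Wnt antagonist (4.23, 6.53 and 4.40), and the protease Adamts9 (8.45, 10.24 and 8.39). In the mutants Nog and Adamts9 ranged by 0.09 each, and Sfrp1 by 3.37. These genes were chosen after their values were seen.

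One probe set of Hspa8 read 12.53, 12.56 and 11.34, low in wild type 3, while its other probe sets stayed within 0.05 over the 3 arrays.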
